A study of Mus musculus with 6 samples.

Results

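A set of 32 mouse genes of regulated cell death, covering apoptosis, necroptosis and pyroptosis, was followed through RNA-seq libraries of liver cells sorted after sham surgery or after ischemia and reperfusion (I/R). In the I/R model the flow of blood to the liver is cut off and later returned. The genes were taken by symbol from the deposited table of 22027 protein-coding genes, in which each of the 32 symbols had 1 row. The cells were labelled as liver lymphatic endothelial cells of IL7-GFP mice, in which GFP fluorescence reports the gene for the cytokine IL7, and the columns of the table are marked as GFP plus. Sham surgery gave 3 libraries and I/R gave 3 libraries taken at day 3, and 20000 to 50000 cells entered each library. Every library of both groups came from reporter mice. Sort markers beyond the reporter, the number and age of the mice, any pooling of animals and the time of the sham samples are not stated. No label ties a library to its own animal, so p-values reflect the spread among these libraries, which may be technical.

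Apoptosis dismantles a cell from within. Its mitochondrial branch is held by the Bcl2 family: inhibitors such as Bcl2 and Mcl1 restrain the pore formers Bax and Bak1, and small BH3-only proteins release that restraint, so that cytochrome c leaves mitochondria and caspases are activated. Its other branch starts at death receptors such as Fas, which recruit Fadd and caspase-8. Necroptosis runs from Ripk1 and Ripk3 to Mlkl, which breaks the plasma membrane, and caspase-8 restrains it. In pyroptosis, inflammasomes activate caspase-1, which cleaves gasdermin D into a membrane pore, and Ninj1 then ruptures the membrane. Ischemic liver injury is known for the death of hepatocytes and sinusoidal endothelium, and Kupffer cells, the macrophages resident in the liver, are a main site of inflammasome activity.

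The libraries held 6297308 to 17086746 recovered counts, and the smallest count of any of the 32 genes in any library was 28, for Fadd. Markers of lymphatic endothelium were present in all 6 libraries. Their summed normalised count over 7 genes was 8396 to 30069 in sham and 27295 to 44116 in I/R libraries. The low of 8396 was sham library 3, against 23415 and 30069 in sham libraries 1 and 2. All 7 genes averaged higher in I/R libraries. The groups did not overlap for Pdpn and Ccl21a and overlapped for the rest. In limma, the test described below, 4 of the 7 had an unadjusted p under 0.05, against 4.44% of all tested genes. After adjustment 0 of the 7 passed. The part of this in the values of the 32 genes was not tested. Markers of Kupffer cells, another cell type than the labelled one, had higher sums than the lymphatic markers in all 6 libraries. Over 7 genes they came to 165428 to 190836 in sham and 110129 to 188675 in I/R libraries. A recruited monocyte list of 6 genes summed to 2131 to 2720 in sham and 4230 to 4675 in I/R libraries. The groups did not overlap in this sum, nor for Ccr2, Chil3 and F13a1, but they did for Ly6c2, Itgam and Plac8. Over all tested genes 9.59% did not overlap. F13a1 averaged 403 in sham and 1778 in I/R libraries, and Plac8 averaged 1339 and 1175. F13a1 was the only gene of this list past an adjusted p of 0.05 in limma (adjusted p = 0.0416). In DESeq2 Ccr2, Chil3 and F13a1 passed (adjusted p = 9.33e-06, 0.00222 and 1.45e-09), and in edgeR 0 of the 6 genes did. The hepatocyte sums were 38867 to 66689 and 40369 to 58353, also above the lymphatic sum in every library but I/R library 3. Sums of different lists rest on genes of different length and level, so they do not give shares of cells. The neutrophil list of 6 genes summed to 1214 to 1273 in sham and 945 to 1307 in I/R libraries, mostly from Csf3r, with Ly6g at 0 in all 6 libraries. The T and NK cell list of 6 genes summed to 163 to 318 and 201 to 292, mostly from Cd4, with Cd3e and Nkg7 at 0 in all 6 libraries. In RNA from many cells, fewer cells of a type and less RNA per cell cannot be told apart.

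None of the 32 transcripts passed the test for a difference between sham and I/R libraries in limma, edgeR or DESeq2. Among them 0 were higher and 0 were lower past an adjusted p of 0.05 in limma, a linear model fitted over all 13434 tested genes, of which 0.0298% passed. All 32 genes were tested, and their limma adjusted p ran from 0.985 to 0.998. Before adjustment 1 of the 32, Ripk3, or 3.12%, had a limma p under 0.05, against 4.44% of all tested genes (2.96% higher and 1.48% lower). On the recovered counts edgeR and DESeq2 also called 0 of the 32, where they called 0.00744% of 13434 and 0.283% of 14839 genes. They had 1 gene (Pmaip1) and 2 genes (Pmaip1 and Ripk3) at an unadjusted p under 0.05, against 3.98% of 13434 and 3.46% of 18820 genes. DESeq2 was run without the limit on a gene's mean, so its shares are over other sets of genes. A fold change here is the difference of mean log2(normalised count + 1), I/R minus sham, and it ranged from -0.51 for Ninj1 to 0.67 for Pycard. It was positive for 12 genes, or 37.5%, and negative for 20, while 52.1% of all tested genes were positive. The median was -0.02 against 0.02 over all tested genes. The sign turned under at least 1 alternative processing for 17 of the 32 genes.

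The spread of the libraries bounded most of these fold changes. The 95% limma interval lay within a 2-fold change in either direction for 25 of the 32 genes, as it did for 53.1% of all tested genes. The median standard error was 0.21 for the 32 genes and 0.31 over all tested genes. For 8 genes, among them Mcl1, Cycs, Ripk1, Gsdmd and Casp1, the interval lay within 0.5 on the log2 scale on either side of 0. The intervals of Bcl2, Bid, Casp9, Diablo, Fadd, Pycard and Ninj1 reached past a 2-fold change, so they do not exclude a change of that size.

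**Figure D1:**
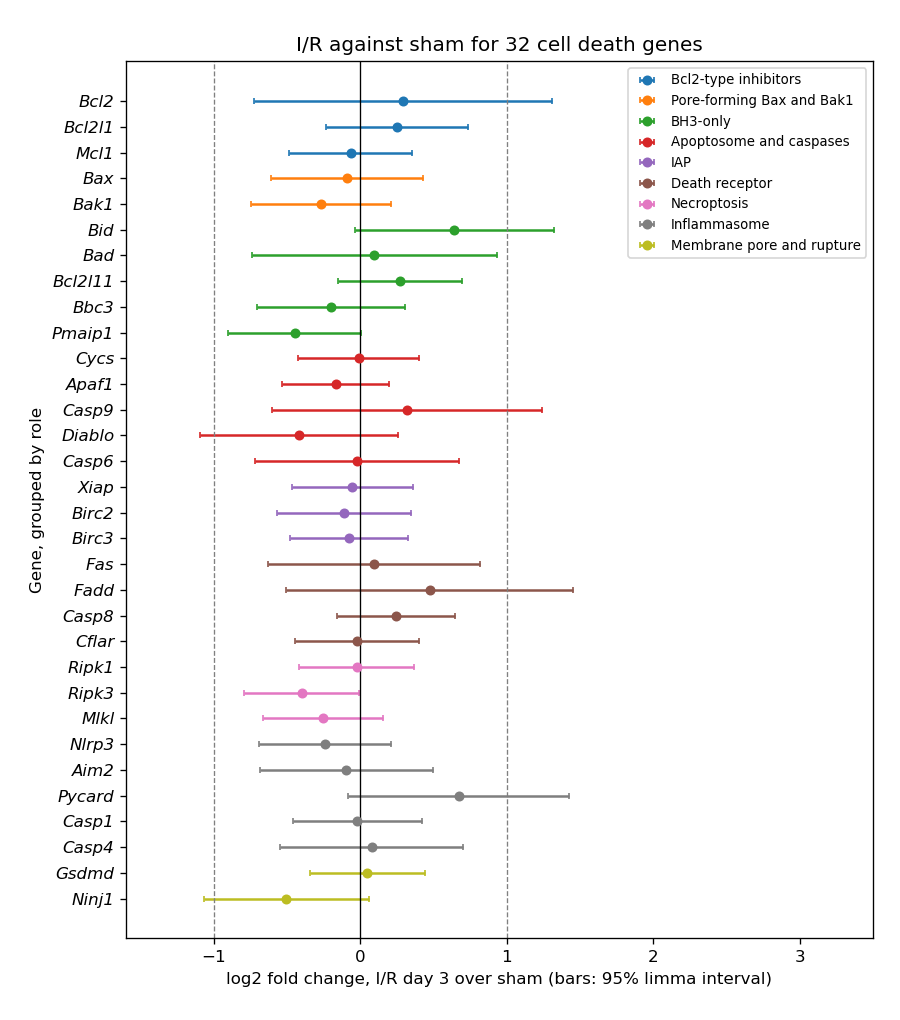
Each point is the log2 fold change of 1 gene, I/R day 3 over sham (n = 3 libraries each), its bar is the 95% limma interval and its colour is the role group; dashed lines mark a 2-fold change. Of the 32 intervals only that of Ripk3 does not include 0, and 25 lie between the dashed lines.

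The groups did not overlap for 4 of the 32 genes, or 12.5%, against 9.59% of all tested genes. For Bid all I/R values lay above all sham values, and for Apaf1, Ripk3 and Mlkl they lay below. The share of genes without overlap was 5.11% on the higher and 4.48% on the lower side over all tested genes. With the library totals made equal the 4 genes were Bid, Casp8, Ripk3 and Mlkl, so Apaf1 then overlapped.

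Transcript levels of the 32 genes spanned a wide range. Per kb of exon the mean normalised count ran from 11.0 for Bcl2 to 2999 for Mcl1. Of the 32 genes 26 lay above the median tested gene on this scale and 9 were among the most abundant 10%. The highest were Mcl1, Ninj1, Nlrp3, Pmaip1 and Cflar, at 2999, 1854, 1492, 1346 and 753 per kb. The lowest were Bcl2, Fadd, Casp6, Casp9 and Diablo, at 11.0, 18.8, 23.9, 25.4 and 29.3 per kb. With the longest annotated transcript as length in place of all exons, no gene moved by more than 5 places in this order.

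**Figure D2:**
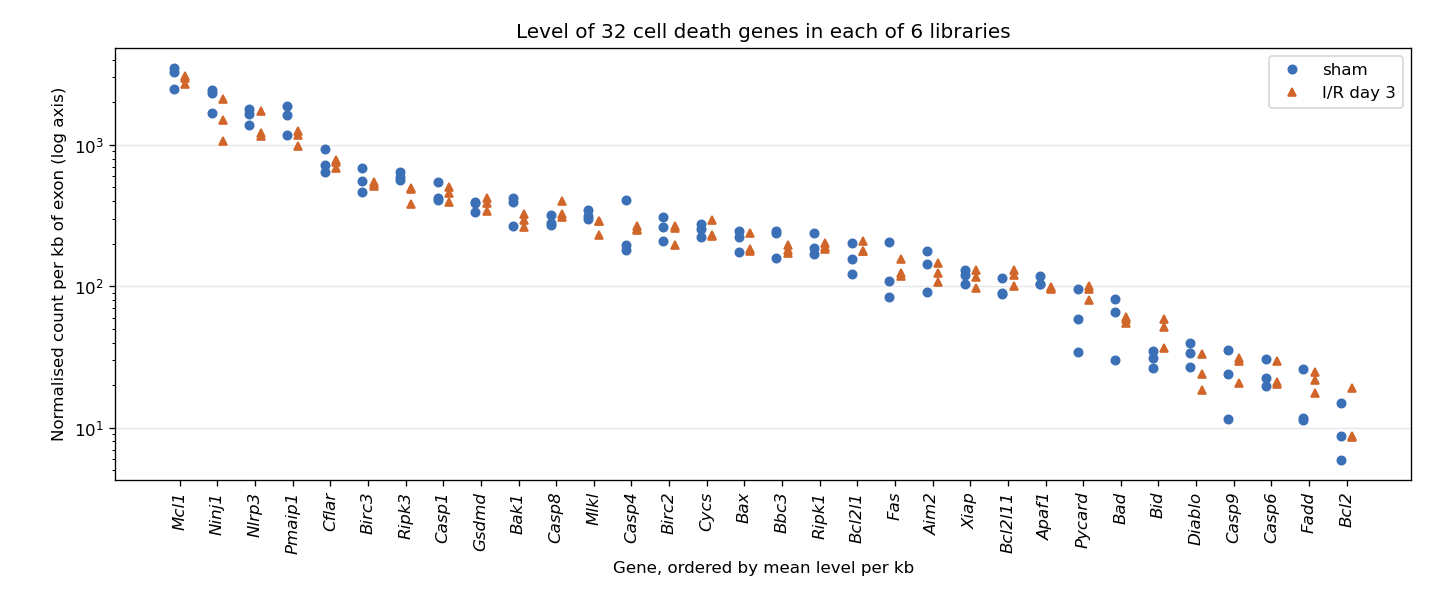
Each symbol is the normalised count per kb of exon (log axis) of a gene in 1 library, sham as circles and I/R day 3 as triangles, with the genes ordered by their mean. Levels run from 11.0 for Bcl2 to 2999 for Mcl1, while the symbols of the groups mix within most genes.

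Of the 3 inhibitor genes of the Bcl2 family in the set, Mcl1, which encodes a short-lived protein that binds Bak1 and BH3-only proteins, had the highest level per kb. Its normalised count was 8438, 12007 and 11155 in sham libraries 1 to 3 and 9240.1, 10520.4 and 10139.6 in I/R libraries 1 to 3. The I/R values lay inside the range of the sham values, and the difference on the log2 scale was -0.07 (SE 0.19, limma adjusted p = 0.995). Bcl2l1, which encodes Bcl-xL, was at 555 to 934 in sham and 809 to 958 in I/R libraries (0.25, SE 0.22). Bcl2, the founding inhibitor, was low and uneven, at 79.8, 138 and 53.8 in sham and 173, 80.4 and 78.6 in I/R libraries. I/R library 1 and sham library 2 were its high samples, and its fold change, 0.29 on the log2 scale (SE 0.46, limma adjusted p = 0.987), was within the spread of the libraries. Per kb, Mcl1 exceeded Bcl2 by 143 to 556 times and Bcl2l1 by 14.7 to 29.0 times in single libraries.

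The pore formers Bax and Bak1 were both detected at moderate levels. Bak1, which sits in the mitochondrial outer membrane, was at 642.0, 1018 and 950.0 in sham and 633, 784 and 712 in I/R libraries. Sham library 1 was close to I/R library 1, so the groups overlapped (-0.27, SE 0.22, limma adjusted p = 0.985). Bax, which moves from the cytosol to mitochondria on activation, was at 274 to 385 in sham and 280.0 to 376 in I/R libraries (-0.09, SE 0.24). On the annotation Bak1 shares 18.2% of its exon length with Ggnbp1 on the other strand and Bax 12.2% with Gm45808 on the same strand.

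Of the 5 BH3-only genes 3 had a positive and 2 a negative fold change. Pmaip1, the p53-induced gene also called Noxa whose product neutralises Mcl1, was the most abundant of them, at 3223, 4437 and 5149 in sham and 2676, 3394 and 3187 in I/R libraries. Sham library 1 fell among the I/R values, and the log2 difference, -0.45 (SE 0.20, limma adjusted p = 0.985), did not pass. The value ran between -0.64, with sham library 1 left out, and -0.30, with sham library 3 left out. Bid, which caspase-8 cleaves to link death receptors to mitochondria, stood at 124, 93.8 and 111 in sham and 208, 183 and 130.01 in I/R libraries. Every I/R value was above every sham value, by a narrow margin for I/R library 3 (0.64, SE 0.31, limma adjusted p = 0.985). Exons of Bid share 628 bases, or 17.7% of their length, with Bcl2l13 on the other strand, and whether counting used strand is not stated, so reads of the pair cannot be told apart there. Bcl2l11, encoding the activator Bim, was at 707 to 917 in sham and 806 to 1047 in I/R libraries (0.27, SE 0.19). Bbc3, encoding the p53 target Puma, was at 336 to 519.8 and 363 to 413 (-0.20, SE 0.23). Bad, which growth factor signalling holds inactive, was at 76.6 to 207 and 141 to 155 (0.10, SE 0.38). Bad shares 20.5% of its exon length with Gpr137 on the other strand.

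Of the 5 genes listed with the apoptosome, among them Diablo and Casp6, which are not parts of it, 4 had a negative fold change. The sham and I/R values overlapped for all but Apaf1. Cycs, encoding cytochrome c, was the most abundant per kb, at 867, 754 and 933 in sham and 779, 994 and 769 in I/R libraries, with the groups fully mixed (-0.01, SE 0.19, limma adjusted p = 0.998). Apaf1, which assembles with cytochrome c into the caspase-9 platform, was at 1069, 939 and 943 in sham and 876, 885 and 858 in I/R libraries. It had the smallest range of the 32 genes, 1.25-fold from the lowest to the highest library, and every I/R value was below every sham value (-0.17, SE 0.17, limma adjusted p = 0.985). Casp9, the initiator caspase of this branch, was at 60.3 to 183 in sham and 108 to 161 in I/R libraries (0.32, SE 0.42). Diablo, which frees caspases from their inhibitors, was at 165 to 244 and 114 to 205 (-0.42, SE 0.31), and it shares 21.5% of its exon length with B3gnt4 and 19.3% with Gm49027. Casp6, an executioner caspase, was at 109 to 170 and 114 to 164 (-0.03, SE 0.31).

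The inhibitor of apoptosis genes had log2 fold changes of -0.11 to -0.05, all 3 negative, and with equal library totals that of Xiap was 0.001449. Birc3, an NF-kappaB target that encodes the ubiquitin ligase cIAP2, was the most abundant, at 3430.2, 2310.1 and 2771 in sham and 2553, 2741 and 2656 in I/R libraries. The I/R values sat inside the sham range (-0.08, SE 0.18, limma adjusted p = 0.994). Birc2, encoding the related cIAP1, was at 962 to 1418 in sham and 889 to 1221 in I/R libraries (-0.11, SE 0.21). Xiap, the direct inhibitor of caspases, was at 979.8 to 1237 and 916 to 1231 (-0.05, SE 0.19). Birc2 and Birc3 are related neighbours on chromosome 9, and how reads shared by such copies were counted is not stated.

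In the death receptor branch, the transcript for the brake on caspase-8 had a higher level per kb than Casp8. Cflar, which encodes the caspase-8 inhibitor c-FLIP, was at 11757, 9178 and 8094 in sham and 9651, 8706 and 9887 in I/R libraries. The groups overlapped throughout (-0.02, SE 0.19, limma adjusted p = 0.998). Casp8 itself was at 789 to 928 in sham and 899 to 1159 in I/R libraries (0.24, SE 0.18). Per kb, Cflar exceeded Casp8 by 1.71 to 3.404 times in single libraries. Fas, the death receptor, was at 172 to 420.4 in sham and 242 to 323 in I/R libraries (0.10, SE 0.33). Fadd, its adaptor, was at 44.2 to 102 and 68.5 to 95.9 (0.47, SE 0.44).

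The necroptosis genes Ripk3 and Mlkl were lower in every I/R library than in any sham library, and neither passed the threshold. Ripk3, the kinase that activates Mlkl, was at 1475, 1284 and 1361 in sham and 881, 1119.6 and 1135 in I/R libraries. I/R library 1 was the lowest and the other I/R libraries were close to each other. Ripk3 thus averaged 1373 ± 95.7 in sham and 1045 ± 142 in I/R libraries (SD, n = 3 in each group). The log2 fold change came to -0.40 with an SE of 0.18 and a 95% interval of -0.79 to -0.01 (limma unadjusted p = 0.0453, adjusted p = 0.985). Mlkl, which forms the membrane lesion, was at 794, 692 and 725 in sham and 533, 662 and 664 in I/R libraries. I/R library 1 was again the lowest, and I/R libraries 2 and 3 lay just below sham library 2 (-0.25, SE 0.19, 95% interval -0.66 to 0.15, limma adjusted p = 0.985). Without I/R library 1 the log2 fold changes were -0.28 for Ripk3 and -0.15 for Mlkl. Without the shallowest library of each group they were -0.23 and -0.09. Ripk1, the upstream kinase that also serves survival signalling, was at 1975, 1420.1 and 1552 in sham and 1531, 1699 and 1589.8 in I/R libraries, and the groups overlapped (-0.02, SE 0.18, limma adjusted p = 0.998). I/R library 1 also had the lowest Kupffer cell sum, 110129 against 163912 to 190836 in the other 5 libraries, and the part of this in the values of Ripk3 and Mlkl was not tested.

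The 250 bases before the transcription start are shown for the 4 genes whose groups did not overlap, from RefSeq on GRCm38.p6 and read along the transcribed strand. Windows of this kind were found for 30 of the 32 genes. Capitals mark the GC box GGGCGG on either strand, the core of sites for Sp family factors. The windows are chr14:55788858-55789107 (minus strand) for Ripk3, chr8:111338206-111338455 (minus strand) for Mlkl, chr6:120916825-120917074 (minus strand) for Bid and chr10:91082744-91082993 (minus strand) for Apaf1.
Ripk3: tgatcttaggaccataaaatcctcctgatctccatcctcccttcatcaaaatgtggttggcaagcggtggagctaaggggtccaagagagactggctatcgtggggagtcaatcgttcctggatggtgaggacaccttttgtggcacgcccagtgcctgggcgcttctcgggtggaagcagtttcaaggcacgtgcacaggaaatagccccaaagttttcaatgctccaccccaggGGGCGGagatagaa
Mlkl: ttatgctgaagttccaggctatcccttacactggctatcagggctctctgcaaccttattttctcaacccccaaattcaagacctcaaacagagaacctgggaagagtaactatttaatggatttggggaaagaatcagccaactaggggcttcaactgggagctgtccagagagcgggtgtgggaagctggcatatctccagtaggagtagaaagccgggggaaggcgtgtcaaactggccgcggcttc
Bid: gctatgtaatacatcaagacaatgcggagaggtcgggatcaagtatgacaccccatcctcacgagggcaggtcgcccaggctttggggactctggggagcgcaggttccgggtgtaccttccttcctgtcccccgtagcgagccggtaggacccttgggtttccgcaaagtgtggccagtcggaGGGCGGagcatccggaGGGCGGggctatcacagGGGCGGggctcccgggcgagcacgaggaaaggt
Apaf1: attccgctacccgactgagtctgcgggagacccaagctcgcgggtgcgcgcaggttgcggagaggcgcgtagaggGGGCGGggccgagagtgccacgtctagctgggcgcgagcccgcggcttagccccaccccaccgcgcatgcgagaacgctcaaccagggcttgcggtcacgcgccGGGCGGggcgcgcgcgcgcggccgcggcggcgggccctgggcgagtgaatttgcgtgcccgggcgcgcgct

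These windows differed in base composition and in the GC box. G and C made up 54.0% of the Ripk3 window and 50.8% of the Mlkl window, against 63.6% for Bid and 75.6% for Apaf1. The GC box occurred 1 time in Ripk3, 3 times in Bid and 2 times in Apaf1, and 0 times in Mlkl. It was found in 19 of the 30 genes with a window and in 32.7% of all 32851 windows searched. That full set outnumbers the 22027 genes of the deposited table, so it is not a like set for the 30 genes. For this and the motifs below, a difference between the sets was not tested. The core of the interferon-stimulated response element, searched as GAAA and GAAA with 2 bases between them, was found in 0 of the 30 genes and in 2.98% of all windows, and the gamma-activated site TTCNNNGAA in Fas and Ripk1 and in 7.02% of all windows. TATAAA was found in Cflar and Xiap and in 12.4% of all windows. Both strands were searched, the motifs may overlap, and a match is a run of letters and not a measured binding site.

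The inflammasome genes ranged from very abundant to scarce, and none of the 5 passed. Nlrp3, the sensor of membrane and ion disturbance, was among the highest of the 32 genes, at 6725, 5559 and 7293 in sham and 4719.7, 7065 and 4947 in I/R libraries. I/R library 2 was inside the sham range while the others lay below it (-0.24, SE 0.20, limma adjusted p = 0.985). Aim2, a sensor of cytosolic DNA, was at 321 to 624 in sham and 373 to 508 in I/R libraries (-0.10, SE 0.27). Pycard, the adaptor ASC that joins sensors to caspase-1, was at 130.4, 222 and 362 in sham and 306, 381 and 364 in I/R libraries. Sham library 3 was at the I/R level and sham library 1 was well below, giving 0.67 (SE 0.34, limma adjusted p = 0.985). Leaving out sham library 1 gave 0.30 and leaving out sham library 3 gave 1.03. Casp1, which matures interleukin 1 beta, was at 613 to 817 in sham and 590.3 to 749.7 in I/R libraries (-0.02, SE 0.20). Casp4, the mouse sensor of cytosolic endotoxin also called caspase-11, was at 1509 in sham library 1, 667 and 730.1 in the other sham libraries and 924 to 993 in I/R libraries (0.08, SE 0.28). Pycard shares 12.8% of its exon length with Gm45205 on the other strand.

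The genes that open the membrane at the end of pyroptosis showed even and uneven levels. Gsdmd, encoding gasdermin D, was at 792, 915 and 933 in sham and 809, 995 and 927 in I/R libraries, with the groups mixed (0.05, SE 0.18, limma adjusted p = 0.995). Ninj1, which tears the plasma membrane after death, was at 3825, 2643 and 3666 in sham and 1657, 3304 and 2367 in I/R libraries. I/R library 1 held the lowest value and I/R library 2 lay inside the sham range (-0.51, SE 0.25, limma adjusted p = 0.985). Leaving out I/R library 1 gave -0.25 for Ninj1, and leaving out I/R library 2 gave -0.75. The Kupffer cell sum was likewise lowest in I/R library 1, at 110129, and its part in the levels of Nlrp3 and Ninj1 was not tested.

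Ratios of 2 of these genes within a library do not depend on how the libraries were scaled. Their size does depend on the gene length used. Casp1 and Gsdmd averaged 454 and 377 per kb with all exons, and 454 and 500 with the longest annotated transcript. The groups did not overlap in 4 of 11 functional pairs, which were chosen after the values had been seen, and in 66 of all 496 pairs of the 32 genes, or 13.3%. Mlkl to Ripk3, per kb, was 0.536, 0.536 and 0.530 in sham and 0.602, 0.589 and 0.582 in I/R libraries. The ratio of this substrate to its kinase was within 0.530 to 0.536 in sham libraries and above that in each I/R library. Ripk3 to Ripk1 was 2.72, 3.29 and 3.19 in sham and 2.095, 2.40 and 2.60 in I/R libraries, lower in every I/R library. Pmaip1 to Mcl1, the antagonist over its main target, was 0.478, 0.462 and 0.578 in sham and 0.362, 0.404 and 0.393 in I/R libraries, also lower in every I/R library. Nlrp3 to Pycard was 48.3, 23.5 and 18.9 in sham and 14.5, 17.4 and 12.7 in I/R libraries, where the high value of sham library 1 comes with its low Pycard. Bak1 to Bax at 1.09 to 2.27, Birc3 to Birc2 at 1.79 to 2.73, Casp1 to Gsdmd at 1.09 to 1.39 and the pairs of Cflar to Casp8, Mcl1 to Bcl2, Mcl1 to Bcl2l1 and Casp1 to Casp4 overlapped between the groups. The ratios were not tested, since the pairs were chosen with their values known, and they stand as a description.

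**Figure D3:**
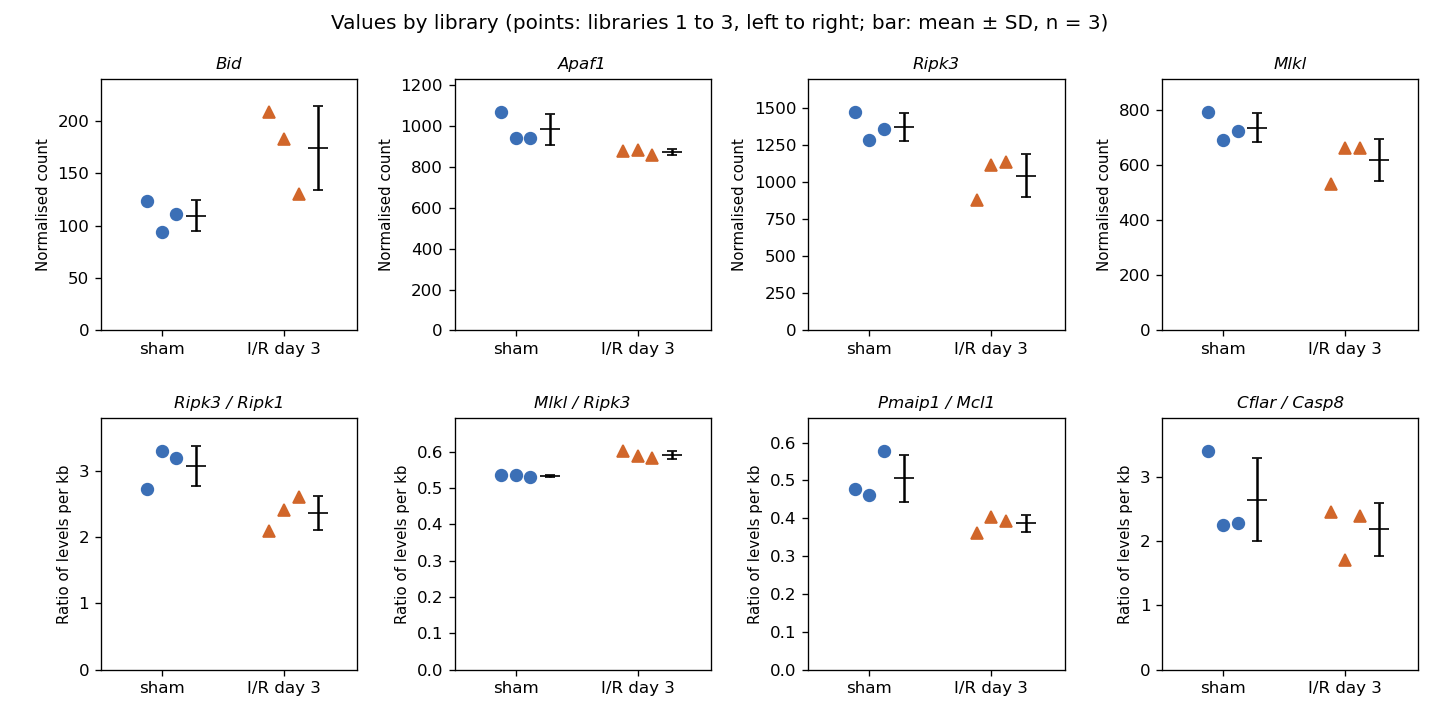
Upper panels show the normalised count of Bid, Apaf1, Ripk3 and Mlkl and lower panels the ratio of levels per kb of 4 gene pairs, with 1 symbol per library (sham circles, I/R day 3 triangles) and the mean ± SD of 3 libraries as bars. Mlkl to Ripk3 lies at 0.530 to 0.536 in sham and 0.582 to 0.602 in I/R libraries, while Cflar to Casp8 overlaps.

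Libraries of the same group also differed from each other. Sham library 1 held the highest value for 11 of the 32 genes and the lowest for 9, and sham library 3 the highest for 10 and the lowest for 5. I/R library 3 held the highest value for 0 genes and the lowest for 2, and 0 of its values were more than 0.5 on the log2 scale from the gene's mean, against 6 in sham library 1. The SD of the log2 values was larger in sham than in I/R for 22 genes, or 68.8%, and for 59.4% of all tested genes. In sham library 1, Pycard was 1.08, Casp9 1.03 and Bad 0.90 below the gene's mean over the 6 libraries on the log2 scale, while Casp4 was 0.70 and Fas 0.68 above it. Sham library 1 was among the shallowest, with 6638130 recovered counts. The highest and lowest library differed by less than 2-fold for 22 genes, and by the most for Bcl2, at 3.23-fold.

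**Figure D4:**
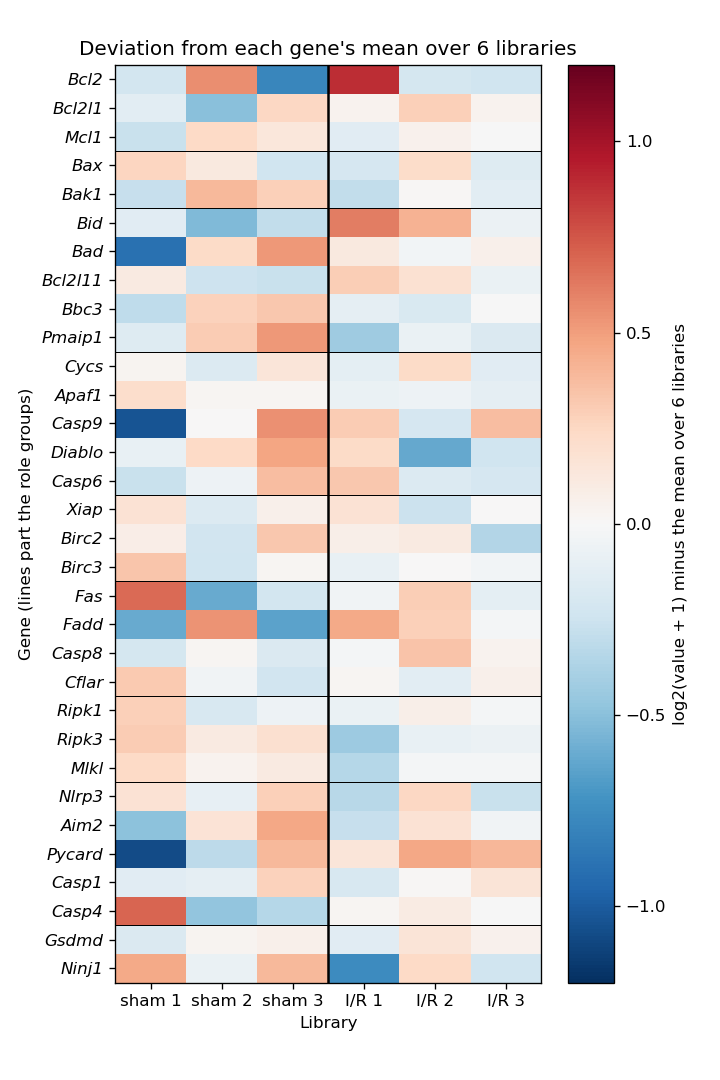
Colours give log2(normalised count + 1) minus the gene's mean over the 6 libraries, for 32 genes in rows and the libraries in columns. Sham library 1 shows deep blue cells for Bad, Casp9 and Pycard, and I/R library 3 stays pale throughout.

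Other genes of these pathways, from lists of 67 genes, also gave no call. All 67 were in the table and 64 were tested, and 0 were higher and 0 lower past the threshold in limma, edgeR or DESeq2. At an unadjusted p under 0.05 there were 0 in limma and edgeR and 1, Tnfaip3, in DESeq2. The median log2 fold change of the 64 was -0.04. The groups did not overlap for 3 of the 64, which is 4.69% against 9.59% of all tested genes. Cyld, a deubiquitinase that promotes death signalling from Ripk1, was at 446, 502 and 526 in sham and 438, 356 and 309.9 in I/R libraries, below every sham value in each I/R library (-0.43, SE 0.21, limma adjusted p = 0.985). Tnfaip3, encoding the NF-kappaB inhibitor A20, was at 17376, 17942 and 16449 in sham and 12262, 13509 and 15403 in I/R libraries, also lower throughout (-0.34, SE 0.18, limma adjusted p = 0.985). Phlda3, a p53 target, was scarce, at 19.6, 24.6 and 0 in sham and 39.6, 31.0 and 30.4 in I/R libraries, where the 0 stands for at most 3.58 by a floor of 3 counts.

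By list, the genes outside the 32 had these values, where 52.1% of all tested genes had a positive fold change. Of the 9 further caspase and nuclease genes 4 were positive and the median was -0.01. Endog, a mitochondrial nuclease, was at 72.5 to 141 in sham and 82.2 to 168 in I/R libraries (0.41, SE 0.40), and Dffb, encoding a nuclease that cuts DNA in apoptosis, was at 0 to 31.0 and 10.7 to 46.7. The 7 genes listed as other inhibitor of apoptosis genes had negative limma fold changes with a median of -0.15. This list also holds Xaf1, which is not a gene of that family (-0.06). For Birc5, which was at 0 in I/R library 1, the sign was not shared by the count tests: limma gave -0.96, edgeR 0.44 and DESeq2 0.43. Birc6 was at 2997 to 3062 in sham and 2378 to 3159 in I/R libraries (-0.16, SE 0.17). Of 10 death ligand, receptor and adaptor genes 4 were positive, and Tnfsf10, encoding the death ligand TRAIL, was at 207 to 361 in sham and 327 to 592 in I/R libraries (0.57, SE 0.29, limma adjusted p = 0.985). Of 10 p53 axis genes 7 were positive with a median of 0.09. Zmat3, a p53 target, was at 38.2 to 126 in sham and 119 to 135 in I/R libraries (0.66, SE 0.45), and Trp53, Mdm2 and Cdkn1a had -0.06, 0.01 and 0.02. Of 12 other inflammasome and pyroptosis genes 6 were positive with a median of 0.00, and Il1b, encoding interleukin 1 beta, was at 12886 to 17896 in sham and 13074 to 13584 in I/R libraries (-0.19, SE 0.19). Nek7, which binds Nlrp3 to activate it, was at 656 to 813 and 709 to 1071 (0.23, SE 0.21). Of 6 other necroptosis genes 2 were positive, and Tlr3 and Ticam1, which feed Ripk3, had 0.25 and -0.16. Of 10 other Bcl2 family genes 5 were positive. The BH3-only gene Bik was at 0 to 35.8 in sham and 23.1 to 66.9 in I/R libraries. Bcl2a1a was at 2993 in sham library 1 and 917 to 1348 in the other 5 libraries, and Naip6 was at 463 to 679.9 in sham and 448 to 582 in I/R libraries. Bcl2a1a, Bcl2a1b and Bcl2a1d are near-identical copies, as are the Naip genes in part, so reads could be split among them and their values are uncertain.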

How the data were processed

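RNA from 6 libraries of sorted mouse liver cells was sequenced after depletion of ribosomal RNA, per the labels' protocols. The authors deposited a signal in which counts of each gene had been normalised with a single factor for the whole library. Tools named in the submitters' processing notes, without their roles, are DESeq2 1.22.1, StringTie 1.3.3b, HISAT2 2.1.0 and Trim Galore 0.5.0, with the build mm10. The tool and strand setting used for counting are not stated. Each library's smallest positive value was taken as 1 count: 100% of values were then whole within 0.01. These recovered counts, which may derive from coverage, sum to 6297308 to 17086746 per library.

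The test was limma 3.58.1 (R 4.3.3) with its trend option, two-sided and without covariates, for genes averaging 10 or more, after log2(value + 1), with Benjamini-Hochberg adjustment over 13434 genes and a threshold of 0.05. The count tests edgeR 4.0.16 and DESeq2 1.42.0 ran on the recovered counts, as alternatives, and called 1 and 42 genes in all. The fits were tested on simulated data. Levels per kb use all exons of GENCODE release 21 on GRCm38, the assembly of mm10, and 21886 of 22027 identifiers matched. The 32 genes and all lists were chosen with earlier results of these data known. Values in every library are given for genes with an unadjusted p under 0.05 or groups without overlap and for the most abundant gene of each role group. Those of Bcl2, Ripk1, Pycard and Gsdmd were added after their values were seen. Outside the 32, genes without overlap and up to 2 per list by p are named, and Trp53, Mdm2, Cdkn1a and Birc5 were chosen after their values were seen. Floors cover counting error only. Same-numbered libraries did not deviate together, and the numbers were not used as pairs in the main test. Other cell type lists (sinusoidal, pan-endothelial, B cell, cholangiocyte, stellate) overlapped between the groups in their sums, as did the neutrophil and T and NK cell lists. Single genes could differ from these sums. Fcgr2b of the 6 sinusoidal genes and Tek and Cldn5 of the 6 pan-endothelial genes were higher in every I/R library. The rest of both lists overlapped. Fcgr2b passed in DESeq2 (adjusted p = 0.00613) but not in limma (adjusted p = 0.447). Cdh5, the largest part of the pan-endothelial sum, averaged 13496 in sham and 11829 in I/R libraries.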

Additional observations from a re-analysis of the deposited data

How the results depend on the processing

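The call of 0 of the 32 genes and 0 of the 64 other cell death genes held under all 17 alternatives, with the lowest adjusted p of a member at 0.333, for Pmaip1 in limma without sham library 1. The median log2 fold change of the 32 genes stayed between -0.087 and 0.030. The count of genes whose groups do not overlap was 4 in the main comparison, 5 to 13 without single libraries (13 without sham library 1, 8 without sham library 2, 7 without I/R library 1 or 2, 6 without sham library 3) and 17 without both shallowest libraries. Fewer libraries leave less room for overlap. Over all tested genes the share was 9.59% with 6 libraries, and 24.1%, 20.4% and 17.9% without sham libraries 1 to 3. It was 17.999%, 20.2% and 17.4% without I/R libraries 1 to 3, and 36.8% without both shallowest. Among the 32 genes the share was 12.5% with 6 libraries, and 40.6%, 25% and 18.75% without sham libraries 1 to 3. It was 21.9%, 21.9% and 15.6% without I/R libraries 1 to 3, and 53.1% without both shallowest. Why the shares of the 32 genes and of all tested genes differ was not tested.

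The sign of the log2 fold change was kept under all 17 alternatives for 15 genes and turned for 17, none of which passed in any. With equal library totals the values that turned were 0.043 for Cycs, 0.030 for Casp6, 0.001449 for Xiap, 0.031 for Cflar, 0.030 for Ripk1 and 0.035 for Casp1. With quantile normalisation they were 0.086 for Mcl1, 0.003046 for Cycs, 0.12 for Cflar and 0.033 for Ripk1. In edgeR and DESeq2 they were -0.027 and -0.028 for Bad and -0.017 and -0.021 for Casp4. Without both shallowest libraries they were -0.11 for Bcl2, 0.093 for Bax, -0.36 for Bad, 0.059 for Cycs, -0.19 for Casp9, 0.093 for Birc3, 0.11 for Cflar and 0.15 for Ripk1. Leaving out single libraries gave ranges that crossed 0 of -0.36 to 0.11 for Aim2, -0.33 to 0.38 for Bad, -0.23 to 0.014 for Bax, -0.079 to 0.65 for Bcl2, -0.26 to 0.032 for Birc2, -0.22 to 0.066 for Birc3, -0.10 to 0.11 for Casp1, -0.14 to 0.45 for Casp4, -0.19 to 0.15 for Casp6, -0.12 to 0.67 for Casp9, -0.14 to 0.13 for Cflar, -0.13 to 0.057 for Cycs, -0.18 to 0.46 for Fas, -0.026 to 0.13 for Gsdmd, -0.22 to 0.037 for Mcl1, -0.13 to 0.11 for Ripk1 and -0.15 to 0.062 for Xiap. Ranges on 1 side of 0 were -0.20 to -0.11 for Apaf1, -0.48 to -0.14 for Bak1, -0.40 to -0.088 for Bbc3, 0.066 to 0.44 for Bcl2l1, 0.19 to 0.39 for Bcl2l11, 0.50 to 0.84 for Bid, 0.13 to 0.32 for Casp8, -0.64 to -0.21 for Diablo, 0.27 to 0.86 for Fadd, -0.31 to -0.15 for Mlkl, -0.75 to -0.25 for Ninj1, -0.42 to -0.13 for Nlrp3, -0.64 to -0.30 for Pmaip1, 0.30 to 1.03 for Pycard and -0.47 to -0.28 for Ripk3. The cause of these shifts was not tested.

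With the replicate block 0 of the 32 genes passed in limma (lowest adjusted p = 0.999) and the median log2 fold change was -0.02. Same-numbered libraries had correlations of deviations of -0.02, -0.21 and -0.00138, and no library correlated best with its own number. Whether same-numbered libraries shared more than a number cannot be told from 3 libraries in each group. Depth limits the scarcest genes, since Fadd rested on 28 recovered counts in its lowest library.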
